A study of Danio rerio with 30 samples.

Results

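The genes described here are the collagen genes of zebrafish retina. They were found by name: an Ensembl gene was taken when its zebrafish symbol, in lower case, reads col, a number, the letter a, a number and an optional paralog letter. The rule found 57 of the 32520 Ensembl genes in the deposited tables, and all 57 had at least 1 count in each of the 2 experiments. By the type of collagen they encode, 15 are fibrillar (types I, II, V, XI, XXIV and XXVII), 9 belong to basement membranes (types IV, XV and XVIII), and the other 33 encode collagens of further kinds.

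Collagens are triple helices of protein chains that are secreted and built into the extracellular matrix. Fibrillar collagens form cables: type I is the main fibril of skin, bone, tendon and scar, type II is the main fibril of cartilage and of the vitreous, and types V and XI sit inside other fibrils and set where they start and how thick they grow. Type IV collagen is a net that gives basement membranes their sheet form, and types XV and XVIII are collagens that carry sugar chains and bind to that sheet. A retina meets basement membranes at the vitreous, where the endfeet of Müller glia rest on one, and around its blood vessels. The remaining types include chains that coat the surface of fibrils (types IX, XII, XIV and XVI), beaded filaments (type VI), anchoring fibrils of epithelia (type VII) and transmembrane collagens (types XVII and XXIII).

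RNA with a poly(A) tail was sequenced from retinas of adult zebrafish, 3 libraries in each of 10 groups. In the needle poke experiment, wild type fish whose retinas were poked through the back of the eye were kept in water with PLX3397, an inhibitor of the CSF1 receptor that microglia depend on, with ZVAD-fmk, an inhibitor of caspases, or with the solvent DMSO, and their retinas were taken 2 days after the injury. The fourth group of that experiment was uninjured wild type retinas without any treatment, so the poked DMSO group differs from it by the poke and by the solvent together. In the second experiment retinas were taken 2 days after an injection into the vitreous of NMDA, an agonist of glutamate receptors that kills neurons of the inner retina, or without injury. Each of these arms held csf1ra mutants, csf1rb mutants and wild type (WT) fish; csf1ra and csf1rb are the paralogous zebrafish genes for the CSF1 receptor. The labels do not name the alleles, or say whether the 3 libraries of a group came from different animals. The p-values here set group differences against the spread between libraries, which may not be the spread between animals. The labels give no injection of saline for the uninjured arm, so NMDA and the act of injection cannot be told apart. The titles carry the letters MG, but the protocol describes whole retinas and names no sort. The experiments are given as separate batches and were not compared by any test.

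The libraries of the poke experiment held 38933511 to 92198888 counts and those of the NMDA experiment 22849708 to 41622168 counts. Values per library are CPM, the counts of a gene relative to the size of its library after scaling for library composition. Each comparison was tested over all genes with edgeR's quasi-likelihood test, and "higher", "lower", "rose" and "fell" mark a Benjamini-Hochberg adjusted p under 0.05. In csf1ra mutants csf1ra itself had 1.27 to 1.45 CPM after NMDA, against 6.68 to 7.47 CPM in WT, and 0.162 to 0.316 CPM uninjured, against 3.92 to 4.34 CPM in WT. The gene csf1rb was near the limit of detection, with 0 to 1 counts per library in csf1rb mutants after NMDA, against 8 to 10 in WT, and with 2, 10 and 2 counts in uninjured csf1rb mutants, against 16, 9 and 21 in WT, where the groups overlapped. Markers of rods and Müller glia were abundant in every group, while a list of 9 lens genes summed to at most 2.16 CPM and a list of 9 genes of surface epithelium to at most 31.8 CPM in any library. Summed lists for the retinal pigment epithelium, cartilage and mural cells ran over 24.3 to 138 CPM, 56.0 to 166 CPM and 620 to 1417 CPM, and their part in the results was not tested. Müller glia markers summed to 11200 to 18020 CPM in uninjured retinas of the poke experiment, against 3904 to 5255 CPM for rod markers. In uninjured WT retinas of the NMDA experiment they summed to 8436 to 9513 CPM, against 14260 to 16160 CPM. The egfp reporter had 287.2 to 489.5 CPM in poked libraries, against 827.6 to 1149 CPM in uninjured ones of that experiment. In the NMDA experiment it had 219.6 to 351.8 CPM after NMDA, against 367.2 to 1105 CPM uninjured. Among uninjured retinas it had 367.2 to 460.7 CPM in csf1rb mutants and 812.7 to 1105 CPM in csf1ra mutants, against 583.5 to 809.4 CPM in WT. Whether Müller glia were enriched was not tested. In RNA from many cells together, fewer cells of a type and less RNA per cell cannot be told apart. In the poke experiment 4 libraries (replicate 3 of the poked DMSO group, replicate 2 of PLX3397, replicate 1 of ZVAD and replicate 2 of the uninjured group) each scored lowest in their group on the third principal component of all tested genes. That component held 9.4% of the variance. The uninjured library scored -95.6, against 38.7 and 35.5 for its fellows. The DMSO library scored -18.4, against 30.7 and 31.1, and the PLX3397 library -27.7, against 28.5 and 11.1. The ZVAD library scored -18.5, close to its fellows at -6.9 and -8.5. In chi-square per degree of freedom between pairs of libraries, ZVAD replicate 1 had 69.6 and 66 with its fellows, which had 7.73 between them. Without these 4, each group loses 1 of its 3 libraries, the lowest on that component. That choice by itself narrows the groups, so more calls without them are not added evidence. Leaving out these 4 libraries raised the number of genes called over all genes, of which 21334 were tested before and 21560 after. Against uninjured retinas it went from 6744 to 8442 for DMSO, 9149 to 10302 for PLX3397 and 8635 to 10470 for ZVAD. Against DMSO it went from 7297 to 8323 for PLX3397 and 3981 to 6154 for ZVAD. Without these 4 the collagen genes called were 25 in place of 21 for DMSO, 22 in place of 12 for PLX3397 and 18 in place of 15 for ZVAD against uninjured retinas, 20 in place of 17 for PLX3397 against DMSO, and 17 in place of 7 for ZVAD against DMSO.

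Collagen mRNA was dominated by a few genes. In uninjured retinas of the poke experiment col15a1b, which encodes a type XV collagen chain, held 46.8% ± 1.19 of all collagen counts (SD, n = 3), col18a1a, a type XVIII chain, held 13.1% ± 1.12, and the type II genes COL2A1 (ENSDARG00000069093) and COL2A1 (ENSDARG00000011407) held 11.8% ± 0.164 and 10.2% ± 0.688. The 4 leading genes together held between 78.5% and 85.2% of the collagen counts in every group, as means of 3 libraries. These are shares of counts that were not corrected for transcript length. The number of collagen genes with a group mean of at least 1 CPM was 34, 34 and 33 in poked PLX3397, ZVAD and DMSO retinas, against 31 in uninjured ones. After NMDA it was 19 in csf1ra mutants, 24 in csf1rb mutants and 20 in WT, against 28, 32 and 30 in the uninjured retinas of the same genotypes.

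The summed collagen mRNA was lower after the poke with DMSO and after NMDA. Collagen genes took 0.178% to 0.203% of the counts in poked DMSO retinas, against 0.315% to 0.456% in uninjured retinas, and 0.0906% to 0.118% in WT retinas after NMDA, against 0.315% to 0.341% in uninjured WT retinas. No library of an injured group reached the uninjured range in these 2 comparisons. With PLX3397 the poked libraries had 0.281%, 0.387% and 0.329%, of which 2 lie within the uninjured range, and with ZVAD they had 0.251% to 0.282%, below it. Uninjured csf1rb mutants were the highest group of the NMDA experiment at 0.514% to 0.597%, above the 0.315% to 0.341% of uninjured WT retinas. By class, the sum for basement membrane collagens was 1275 ± 93.0 CPM in poked DMSO retinas, against 2795 ± 807 CPM in uninjured ones, and 500.4 ± 93.2 CPM in WT retinas after NMDA, against 1895 ± 90.9 CPM uninjured. For fibrillar collagens the sum was 530.1 ± 22.3 CPM after poke with DMSO, against 1144 ± 368 CPM uninjured, and 441.1 ± 62.8 CPM in WT retinas after NMDA, against 965.6 ± 59.9 CPM uninjured. These sums were not tested, and with 3 libraries against 3 an exact permutation test cannot go below p = 0.10.

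**Figure D1:**
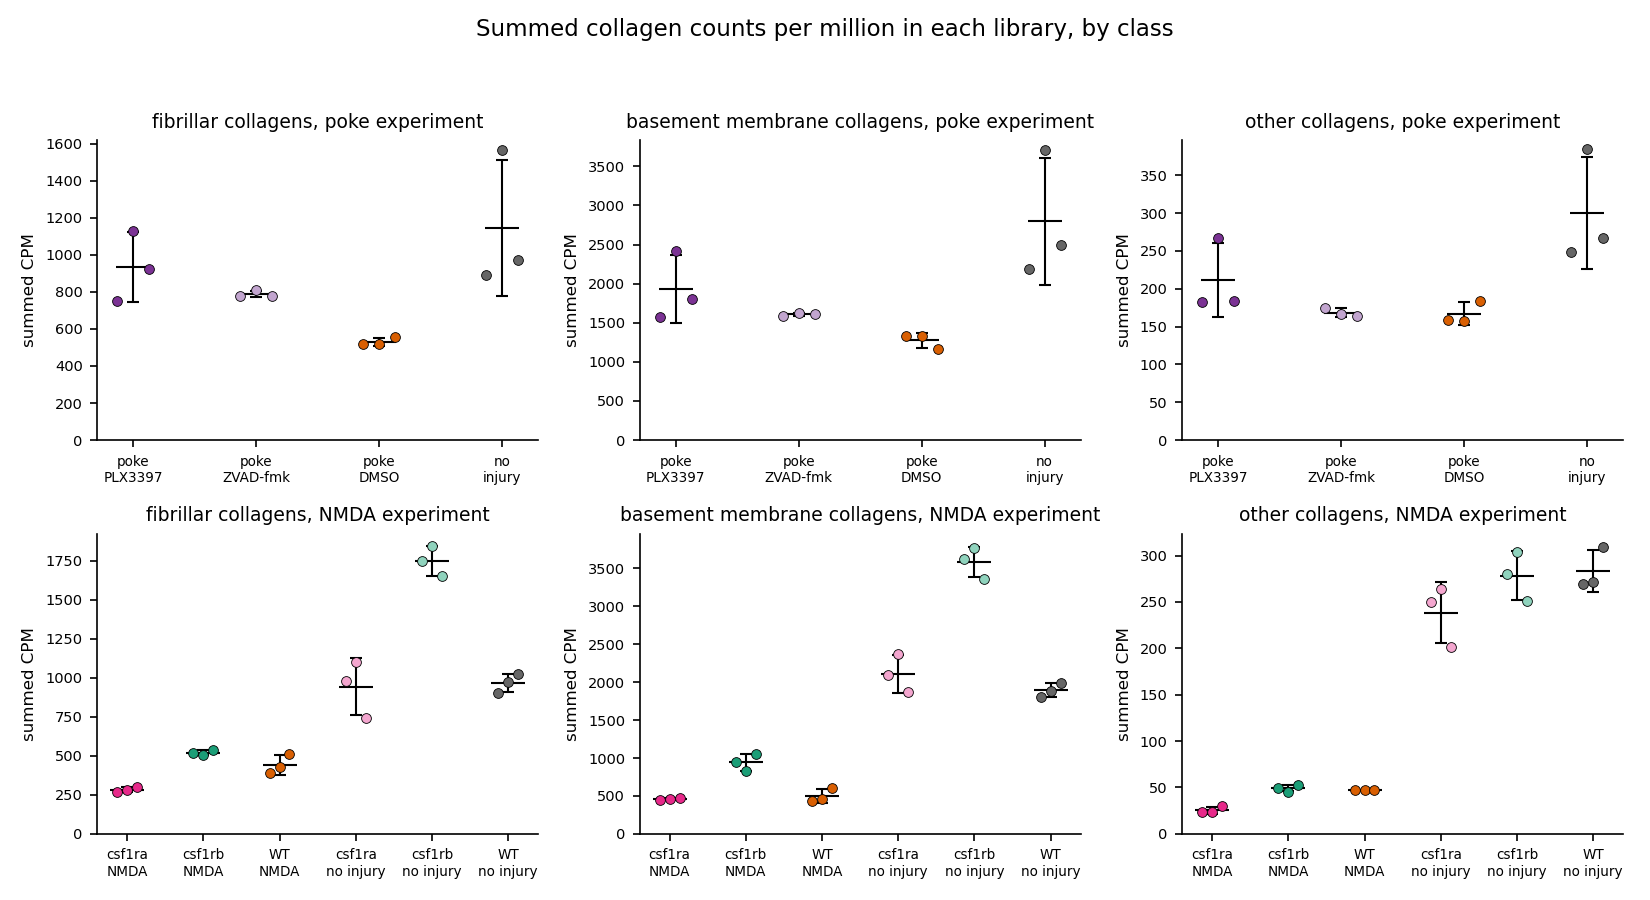
Summed CPM of the fibrillar, basement membrane and other collagen genes in each library of the 10 groups, each experiment on its own; points are libraries, bars are means and error bars SD (n = 3). Poked groups and NMDA groups stand left of their uninjured controls, and the basement membrane sum in WT retinas is 500.4 CPM after NMDA, against 1895 CPM uninjured.

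Needle poke with DMSO, compared with no injury, raised the type I genes COL1A1, COL1A2 and col1a1a and lowered both type II genes and the abundant basement membrane gene col15a1b. Of the 51 collagen genes tested, 12 rose (23.5%) and 9 fell (17.6%), against 18.2% of all 21334 tested genes that rose and 13.4% that fell. The median log2 fold change was -0.15 over the tested collagen genes and -0.03 over all genes. Among 14 tested fibrillar genes 5 rose and 3 fell, among 9 basement membrane genes 2 rose and 3 fell, and among 28 others 5 rose and 3 fell. In all, the share of collagen genes called was 41.2%, against 31.6% of all genes.

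Both chains of type I collagen rose. COL1A1 had 13.6, 13.9 and 37.2 CPM in poked DMSO retinas, against 2.74, 2.92 and 2.63 CPM in uninjured ones. All 3 poked libraries lay above the uninjured ones, with replicate 3 well above its fellows (log2 fold change 2.96 ± 0.35, adjusted p = 2.93e-05). COL1A2, the second chain, had 9.71, 10.1 and 32.7 CPM after the poke, against 3.77, 1.83 and 3.07 CPM uninjured. Again the groups did not overlap and replicate 3 was highest (log2 fold change 2.6 ± 0.55, adjusted p = 0.00258). The zebrafish paralog col1a1a had 4.99, 4.11 and 16.7 CPM in poked DMSO retinas, against 0.109, 1.16 and 0 CPM uninjured, without overlap (log2 fold change 4.23 ± 1.01, adjusted p = 0.00577). Without replicate 3 of the DMSO group the log2 fold changes were 2.31 for COL1A1, 1.79 for COL1A2 and 3.32 for col1a1a, and all 3 calls held; without replicate 2 of the uninjured group, which held most of the col1a1a counts there, that gene's value was 7.27.

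Some marker genes of other cell types moved with these genes. A list of 13 fibroblast markers summed to 119.5 to 135.9 CPM in poked DMSO retinas, against 46.5 to 54.1 CPM uninjured, and 4 of its 11 tested genes rose and 1 fell. Most of that gap was DCN alone, at 68.2 to 76.8 CPM with DMSO, against 2.12 to 2.42 CPM uninjured. The other 12 genes summed to 51.3 to 59.1 CPM, against 44.0 to 52.0 CPM, which overlap. KERA held the largest part of that sum, at 26.4 to 37.3 CPM, against 32.1 to 41.9 CPM. PDGFRA had 6.17 to 9.42 CPM, against 0.787 to 1.31 CPM, and PRRX1 (ENSDARG00000033971) 7.74 to 11.3 CPM, against 3.61 to 5.79 CPM. LUM went the other way, at 0.280 to 0.452 CPM, against 1.27 to 3.77 CPM. PRRX1 (ENSDARG00000042027) and TCF21 had no count in any DMSO library. Microglial markers without apoeb, which alone made up most of their sum, came to 65.7, 61.7 and 348.1 CPM in the poked DMSO libraries, against 41.1, 76.7 and 39.9 CPM uninjured, and 9 of the 12 tested microglial genes rose. Of all genes 18.2% rose and 13.4% fell after the poke with DMSO. Of the 12 endothelial genes tested 5 rose and 0 fell, of 12 mural genes 4 rose and 2 fell, and of 11 genes of the pigment epithelium 4 rose and 1 fell. Their sums were 348.3 to 367 CPM, 677 to 739.2 CPM and 76.7 to 137.5 CPM with DMSO, against 223.5 to 403.3 CPM, 876.4 to 965.6 CPM and 67.1 to 107.6 CPM uninjured. Replicate 3 of the DMSO group, highest in type I and in COL4A1 and COL4A2, was also highest in microglial markers, in the endothelial genes TIE1 (24.96 CPM, against 7.35 and 5.55 in its fellows) and flt1 (18.7, against 5.91 and 3.78), and in the smooth muscle gene acta2 (8.02, against 1.71 and 1.25); these 3 genes were picked after their values were seen. Among more abundant genes of the endothelial and mural lists, some were lowest in that replicate and others highest. KDR had 209.5 CPM there, against 253.2 and 266.3 in its fellows, PDGFRB 229.6, against 345.5 and 329, and NOTCH3 96.3, against 144.8 and 149.8. In contrast, kdrl had 54.1 CPM, against 49.7 and 48.5, and TAGLN (ENSDARG00000033466) 59.6, against 25.99 and 24.3. The gene rgs5b had 103.6 CPM, against 47.6 and 43.4, and RGS5 lay between its fellows. All these genes are examples from the lists. The part of these cells in the result was not tested.

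Type IV collagen split by chain pair. COL4A1 had 3.29, 3.39 and 10.2 CPM in poked DMSO retinas, against 1.36, 0.889 and 1.004 CPM uninjured, and its partner COL4A2 had 3.94, 3.23 and 11.97 CPM, against 0.326, 1.18 and 0.299 CPM; together these chains form the common net of most basement membranes. Neither pair of groups overlapped (COL4A1 log2 fold change 2.38 ± 0.49, adjusted p = 0.00237; COL4A2 3.36 ± 0.64, adjusted p = 0.00133), and without replicate 3 the values were 1.63 and 2.53. The chains of the specialised net went the other way. For col4a5 the poked DMSO libraries had 38.1, 44.5 and 38.9 CPM, against 83.4, 146 and 94.7 CPM in uninjured ones, and for col4a6 54.2, 47.2 and 46.3 CPM, against 120, 186 and 128 CPM. Every poked library was below every uninjured one (col4a5 log2 fold change -1.42 ± 0.21, adjusted p = 0.00019; col4a6 -1.55 ± 0.18, adjusted p = 2.69e-05). In a RefSeq annotation of another zebrafish assembly (GRCz12tu) the neighbouring collagen genes are col4a1 with col4a2, col4a5 with col4a6, col4a3 with col4a4, and col9a2 with col16a1. The first pair rose and the second fell, neither gene of the third was called, and of the last COL9A2 fell and col16a1 was not called.

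The multiplexin col15a1b, the most abundant collagen mRNA by counts, fell after the poke with DMSO. It had 823, 823 and 685 CPM, against 1511, 2702 and 1762 CPM in uninjured retinas, without overlap (log2 fold change -1.36 ± 0.22, adjusted p = 0.000347). Its relative col18a1a, whose protein is the source of the fragment endostatin, had 410, 403 and 375 CPM in poked DMSO retinas, against 465, 673 and 506 CPM uninjured. The poked libraries were all lower, but the difference did not pass the test (log2 fold change -0.47 ± 0.18, adjusted p = 0.0643). The remaining basement membrane genes, col4a3, COL4A4 and col18a1b, had at most 0.760 CPM in any library of the experiment and were called in none of its comparisons.

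Of the genes for type II fibrils and their type IX and XI partners, 4 fell; COL11A2, col11a1b, COL9A1, col9a1b and col9a3 were not called. COL2A1 (ENSDARG00000011407) had 79.5, 79.4 and 87.6 CPM in poked DMSO retinas, against 334, 618 and 357 CPM uninjured, and the ranges did not overlap (log2 fold change -2.41 ± 0.22, adjusted p = 3.08e-06). The second type II gene, COL2A1 (ENSDARG00000069093), had 308, 316 and 260 CPM after the poke, against 396, 657 and 442 CPM uninjured, also without overlap but with a smaller change (log2 fold change -0.76 ± 0.2, adjusted p = 0.00954). COL11A1, a chain that seeds type II fibrils, had 42.4, 34.8 and 39.7 CPM, against 102, 215 and 106 CPM (log2 fold change -1.86 ± 0.28, adjusted p = 0.000199). COL9A2, a type IX chain that coats them, had 84.2, 77.7 and 66.8 CPM, against 153, 248 and 168 CPM (log2 fold change -1.31 ± 0.17, adjusted p = 5.85e-05). In each of these genes the poked libraries were tight and uninjured replicate 2 was the highest; without that replicate COL2A1 (ENSDARG00000069093) fell by 0.50 on the log2 scale and kept its call. A list of 13 Müller glia markers summed to 7698 to 7861 CPM in poked DMSO retinas, against 11200 to 18020 CPM uninjured. Uninjured replicate 2, the highest library in these 4 collagen genes, was also the highest in the Müller list, and the part of Müller glia in the result was not tested.

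Further collagens rose from low levels. The beaded filament gene COL6A3 had 2.16, 2.51 and 4.53 CPM in poked DMSO retinas, against 0.705, 0.653 and 0.597 CPM uninjured (log2 fold change 2.23 ± 0.34, adjusted p = 0.000253). col6a4a had 1.95, 2.59 and 6.16 CPM, against 0.3798, 0.254 and 0.0543 CPM (log2 fold change 3.94 ± 0.75, adjusted p = 0.00126). No poked library of either gene fell into the uninjured range. The fibril gene col5a3a had 6.197, 5.45 and 4.01 CPM after the poke, against 1.47, 0.545 and 2.52 CPM (log2 fold change 1.82 ± 0.4, adjusted p = 0.00349). Of the fibril-coating type XII genes, COL12A1 (ENSDARG00000078322) had 23.2, 23.2 and 29.8 CPM, against 8.79, 18.97 and 8.58 CPM (log2 fold change 1.06 ± 0.38, adjusted p = 0.0474). COL12A1 (ENSDARG00000019601) had 1.904, 1.85 and 4.07 CPM, against 0.922, 1.11 and 1.004 CPM (log2 fold change 1.36 ± 0.4, adjusted p = 0.0185). Both type XII calls were lost without replicate 3 of the DMSO group, at 0.93 and 0.89. The type XIV genes, whose proteins also coat fibrils, fell: COL14A1 had 19.8, 20.3 and 18.5 CPM, against 37, 52.3 and 36.4 CPM (log2 fold change -1.1 ± 0.14, adjusted p = 6.4e-05), and col14a1b 5.01, 5.57 and 3.73 CPM, against 8.19, 12.9 and 10.7 CPM (log2 fold change -1.15 ± 0.25, adjusted p = 0.00289). Both type XIV genes were lower in every poked library than in any uninjured one. The other genes that rose were col5a3b, with 116 counts in the poked DMSO group against 5 uninjured (a call lost without replicate 2 of the DMSO group, at 3.23), and col17a1b, a transmembrane collagen of epithelial cells, at 1.61 ± 0.737 CPM against 0.362 ± 0.178 CPM (SD, n = 3), a call that was lost without replicate 3.

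**Figure D2:**
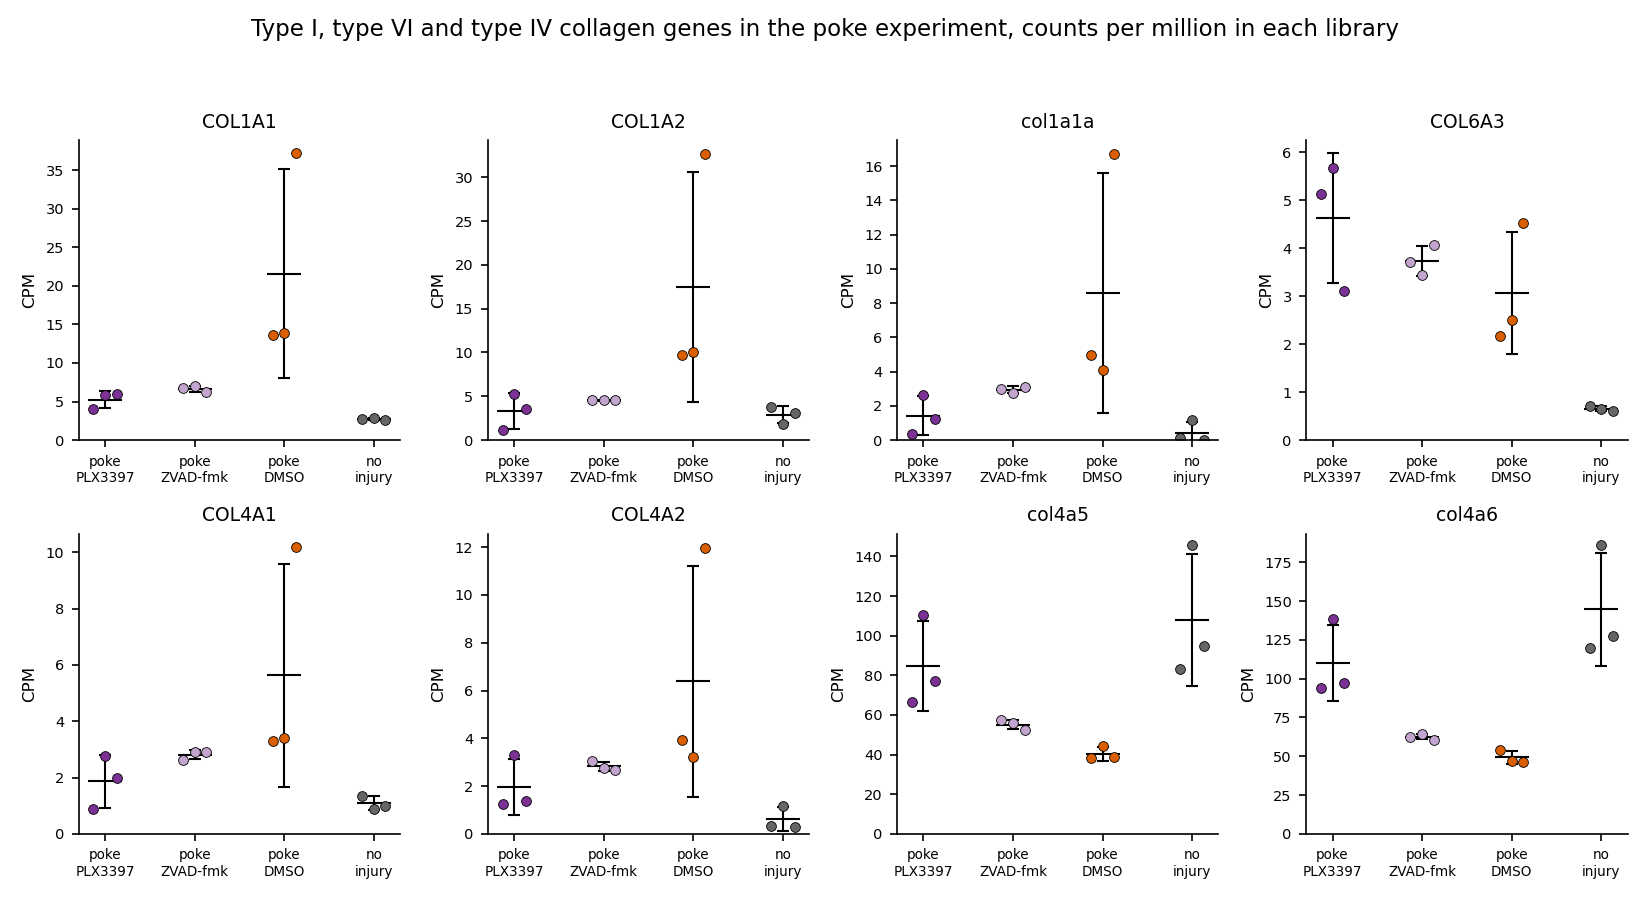
CPM of 8 collagen genes in every library of the needle poke experiment, with poked PLX3397, ZVAD and DMSO groups left of the uninjured group; points are libraries, bars means and error bars SD (n = 3), and each panel has its own axis from 0. COL1A1, COL1A2, col1a1a, COL4A1 and COL4A2 are highest in the DMSO group, led by its replicate 3, whereas col4a5 and col4a6 are highest in uninjured retinas.

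With PLX3397 or ZVAD the poked retinas had less type I collagen mRNA than with DMSO. COL1A1 had 4.04, 5.81 and 5.92 CPM with PLX3397 and 6.73, 7.01 and 6.25 CPM with ZVAD, against 13.6, 13.9 and 37.2 CPM with DMSO. Neither drug group reached the DMSO range (PLX3397 log2 fold change -2.04 ± 0.33, adjusted p = 0.000511; ZVAD -1.69 ± 0.33, adjusted p = 0.00353). COL1A2 had 1.16, 5.29 and 3.56 CPM with PLX3397 and 4.55, 4.61 and 4.53 CPM with ZVAD, against 9.71, 10.1 and 32.7 CPM with DMSO, and again all drug libraries were lower (PLX3397 log2 fold change -2.39 ± 0.54, adjusted p = 0.00415; ZVAD -1.94 ± 0.53, adjusted p = 0.0219). Without replicate 3 of the DMSO group COL1A1 stood at -1.39 for PLX3397 and -1.04 for ZVAD, both still called, while COL1A2 stood at -1.57 for PLX3397, called, and at -1.12 for ZVAD, no longer called. The 2 drug comparisons share their DMSO libraries and are therefore not independent.

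Over all collagen genes PLX3397 against DMSO gave 10 higher (19.6%) and 7 lower (13.7%) of 51, against 16.5% and 17.7% of all genes, with a median log2 fold change of 0.49 among collagen genes and -0.01 among all. ZVAD against DMSO gave 3 higher (5.88%) and 4 lower (7.84%), against 9.70% and 8.96% of all genes, with medians of 0.09 and -0.02. The collagen genes' share of calls in either direction was 33.3% for PLX3397, against 34.2% of all genes, and 13.7% for ZVAD, against 18.7%. Neither share exceeds that of all genes.

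Besides COL1A1 and COL1A2, the genes lower with PLX3397 than with DMSO were col1a1a (log2 fold change -2.6 ± 0.91, adjusted p = 0.0415), col6a4a (-2.2 ± 0.67, adjusted p = 0.0225), COL4A1 (-1.59 ± 0.47, adjusted p = 0.02), COL4A2 (-1.69 ± 0.59, adjusted p = 0.0404) and COL12A1 (ENSDARG00000019601) (-1.08 ± 0.39, adjusted p = 0.047). Each of these 5 calls was lost without replicate 3 of the DMSO group, where the values were -1.69, -1.55, -0.84, -0.86 and -0.61. With ZVAD the further lower genes were col17a1b (log2 fold change -2.34 ± 0.68, adjusted p = 0.0292) and col6a4a (-2.23 ± 0.67, adjusted p = 0.035), and both calls were lost without that replicate, at -2.19 and -1.58. The fibroblast list was lower too. It summed to 27.5 to 34.5 CPM with PLX3397 and 29.7 to 32.1 CPM with ZVAD, against 119.5 to 135.9 CPM with DMSO. Of its 11 tested genes 6 and 4 were lower, against 17.7% and 8.96% of all genes. Without DCN the list came to 17.3 to 23.6 CPM and 15.97 to 17.7 CPM, against 51.3 to 59.1 CPM. KERA held the largest part of that gap. It had 5.99 to 14.3 CPM with PLX3397 and 5.70 to 7.70 CPM with ZVAD, against 26.4 to 37.3 CPM with DMSO. Microglial markers without apoeb summed to 23.1 to 37.9 CPM with PLX3397 and 67.0 to 71.2 CPM with ZVAD, against 61.7 to 348.1 CPM with DMSO, and 9 and 2 of 12 tested genes were lower. Rod markers summed to 837.9 to 1842 CPM with PLX3397 and 1319 to 1692 CPM with ZVAD, against 4457 to 5546 CPM with DMSO. Their part in the result was not tested.

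Some genes that were lower after the poke with DMSO, and col18a1a, were higher with a drug than with DMSO. Of the 9 basement membrane genes 3 were higher and 2 lower with PLX3397, and 1 was higher and 0 lower with ZVAD; col15a1b was called with neither. COL2A1 (ENSDARG00000069093) had 511, 765 and 664 CPM with PLX3397 and 519, 551 and 526 CPM with ZVAD, against 308, 316 and 260 CPM with DMSO. All drug libraries were above all DMSO libraries (PLX3397 log2 fold change 1.14 ± 0.2, adjusted p = 0.000765; ZVAD 0.85 ± 0.2, adjusted p = 0.00919). For col18a1a the values were 489, 779 and 582 CPM with PLX3397 and 687, 695 and 706 CPM with ZVAD, against 410, 403 and 375 CPM with DMSO, without overlap (PLX3397 log2 fold change 0.64 ± 0.18, adjusted p = 0.0149; ZVAD 0.81 ± 0.18, adjusted p = 0.00758). The PLX3397 call for col18a1a was lost without replicate 2 of that group, at 0.44. The other type II gene, COL2A1 (ENSDARG00000011407), was higher with PLX3397 (log2 fold change 0.73 ± 0.21, adjusted p = 0.0152), as were col4a5 (1.06 ± 0.21, adjusted p = 0.00178) and col4a6 (1.16 ± 0.18, adjusted p = 0.000352). Of 12 markers of endothelium 2 were higher with each drug, against 16.5% of all genes with PLX3397 and 9.70% with ZVAD. Their list summed to 784.4 to 1150 CPM with PLX3397 and 824.6 to 865.5 CPM with ZVAD, against 348.3 to 367 CPM with DMSO. Most of that gap was KDR alone, at 645.9 to 987.8 CPM and 686.8 to 730.5 CPM, against 209.5 to 266.3 CPM with DMSO. The part of vessels in the result was not tested.

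The fibril gene col5a3a was higher under both drugs than with DMSO, beyond its rise with the poke. It had 13.3, 18.2 and 10.97 CPM with PLX3397 and 25.03, 17.7 and 19.4 CPM with ZVAD, against 6.197, 5.45 and 4.01 CPM with DMSO and 1.47, 0.545 and 2.52 CPM uninjured. The drug groups overlapped each other, both lay above the DMSO group, and the DMSO group lay above the uninjured one (PLX3397 against DMSO log2 fold change 1.44 ± 0.37, adjusted p = 0.00935; ZVAD against DMSO 1.99 ± 0.38, adjusted p = 0.00304). With PLX3397, col14a1b had 15.9, 20.6 and 15.1 CPM, against 5.01, 5.57 and 3.73 CPM with DMSO (log2 fold change 1.85 ± 0.25, adjusted p = 0.000136), COL14A1 was higher too (0.82 ± 0.14, adjusted p = 0.000763), and so were col7a1, the anchoring fibril gene, at 5.44, 3.79 and 5.802 CPM against 1.23, 0.7399 and 2.27 CPM (1.83 ± 0.43, adjusted p = 0.00547), and col28a1b (1.88 ± 0.54, adjusted p = 0.0167). No PLX3397 library of these 4 genes fell into the DMSO range.

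Set against the same uninjured libraries, 8 collagen genes were higher (15.7%) and 4 lower (7.84%) in poked PLX3397 retinas, against 23% and 19.9% of all genes, and 7 were higher (13.7%) and 8 lower (15.7%) in poked ZVAD retinas, against 21.9% and 18.6%. In either direction that is 23.5% of collagen genes with PLX3397, against 42.9% of all genes, and 29.4% with ZVAD, against 40.5%, so collagen genes were called no more often than genes at large. The median log2 fold change of collagen genes was 0.21 with PLX3397 and -0.05 with ZVAD, and that of all genes 0.06 and 0.02. Side by side, and with shared controls, the log2 fold changes for PLX3397, ZVAD and DMSO were 2.82, 2.51 and 2.23 for COL6A3, 3.26, 3.81 and 1.82 for col5a3a, and 1.49, 1.52 and 1.06 for COL12A1 (ENSDARG00000078322), each of them called. Among genes that were lower in all 3 poked groups, COL2A1 (ENSDARG00000011407) stood at -1.67, -2.08 and -2.41, COL9A2 at -1.38, -1.61 and -1.31, COL11A1 at -1.3, -1.3 and -1.86, and col15a1b at -0.84, -1.34 and -1.36. COL1A1 stood at 0.92, 1.27 and 2.96, and COL4A2 at 1.66, 2.19 and 3.36, called in each. The PLX3397 values of COL1A1 and COL4A2 lost their calls when single libraries were left out: COL1A1 at 0.85 without replicate 2 of the PLX3397 group, and COL4A2 at 1.06. The ZVAD value of col1a1a, 2.69, was called but was lost under DESeq2 at adjusted p = 0.059, and it rose to 5.72 without replicate 2 of the uninjured group.

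NMDA lowered most collagen genes in WT retinas. Of 46 tested, 24 fell (52.2%) and 6 rose (13.04%), against 34.3% of all 20254 tested genes that fell and 35.6% that rose, so the share called in either direction, 65.2%, was near the 69.9% of all genes, and its split between directions was not. The median log2 fold change was -0.90 over collagen genes and 0.01 over all genes. By class, 5 of 14 fibrillar genes fell and 4 rose, 4 of 7 basement membrane genes fell and none rose, and 15 of 25 others fell and 2 rose.

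The largest falls by fold in WT retinas were those of col9a3, 1 of the type II genes and COL9A2, while the second type II gene and COL11A1 fell less. COL2A1 (ENSDARG00000011407) had 10.8, 14.6 and 20.7 CPM in WT retinas after NMDA, against 289, 297 and 327 CPM uninjured. The groups lay far apart (log2 fold change -4.31 ± 0.22, adjusted p = 2.26e-11). COL2A1 (ENSDARG00000069093) had 280, 316 and 358 CPM after NMDA, against 478, 517 and 534 CPM uninjured, also without overlap, but with a far smaller change (log2 fold change -0.68 ± 0.14, adjusted p = 0.00044). The type IX gene COL9A2 had 6.54, 8.91 and 6.901 CPM, against 114, 127 and 138 CPM (log2 fold change -4.08 ± 0.16, adjusted p = 1.06e-12). col9a3, another type IX chain, had 0.201, 0.305 and 0.709 CPM, against 10.8, 11.5 and 13.6 CPM (log2 fold change -4.89 ± 0.33, adjusted p = 7.99e-10). No injured library of either type IX gene came near an uninjured one. COL11A1 had 41.7, 38.5 and 46.3 CPM after NMDA, against 71.96, 90.3 and 89.01 CPM (log2 fold change -0.99 ± 0.12, adjusted p = 1.74e-06). For the type II genes, then, an unequal fall of the paralogs was seen with NMDA as it was with the poke: the log2 fold changes were -4.31 and -0.68 with NMDA, and -2.41 and -0.76 with the poke and DMSO.

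At the basement membrane col15a1b had 60.6, 102 and 161 CPM in WT retinas after NMDA, against 1240, 1289 and 1326 CPM uninjured. Its injured libraries spread widely among themselves, yet all were far below the uninjured ones (log2 fold change -3.57 ± 0.26, adjusted p = 1.94e-09). Its share of collagen counts was 10.6% ± 3.44 after NMDA, against 40.9% ± 0.888 uninjured, while col18a1a, at 333, 310 and 386 CPM against 434, 468 and 520 CPM (log2 fold change -0.47 ± 0.13, adjusted p = 0.00347), held 34.9% ± 2.94 after NMDA, against 15.1% ± 0.554. The chain genes col4a6, at 14.3, 17.6 and 24.5 CPM against 79.9, 73.7 and 81.8 CPM (log2 fold change -2.06 ± 0.23, adjusted p = 3.16e-07), and col4a5, at 23.9, 27.99 and 33.5 CPM against 52.9, 51.4 and 59.7 CPM (log2 fold change -0.94 ± 0.19, adjusted p = 0.000224), fell without overlap. The paired chains COL4A1, whose groups did not overlap, and COL4A2, whose groups did, failed to pass the test, with 1.88, 0.914 and 1.01 CPM against 0.496, 0.697 and 0.906 CPM (log2 fold change 0.85 ± 0.59, adjusted p = 0.202) and 0.804, 0.647 and 1.08 CPM against 1.16, 0.953 and 1.02 CPM (log2 fold change -0.3 ± 0.52, adjusted p = 0.621). Müller glia markers summed to 4220 to 5933 CPM in WT retinas after NMDA, against 8436 to 9513 CPM uninjured. Of their 11 tested genes 7 were lower and 3 higher, against 34.3% and 35.6% of all genes. The part of Müller glia in the result was not tested.

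**Figure D3:**
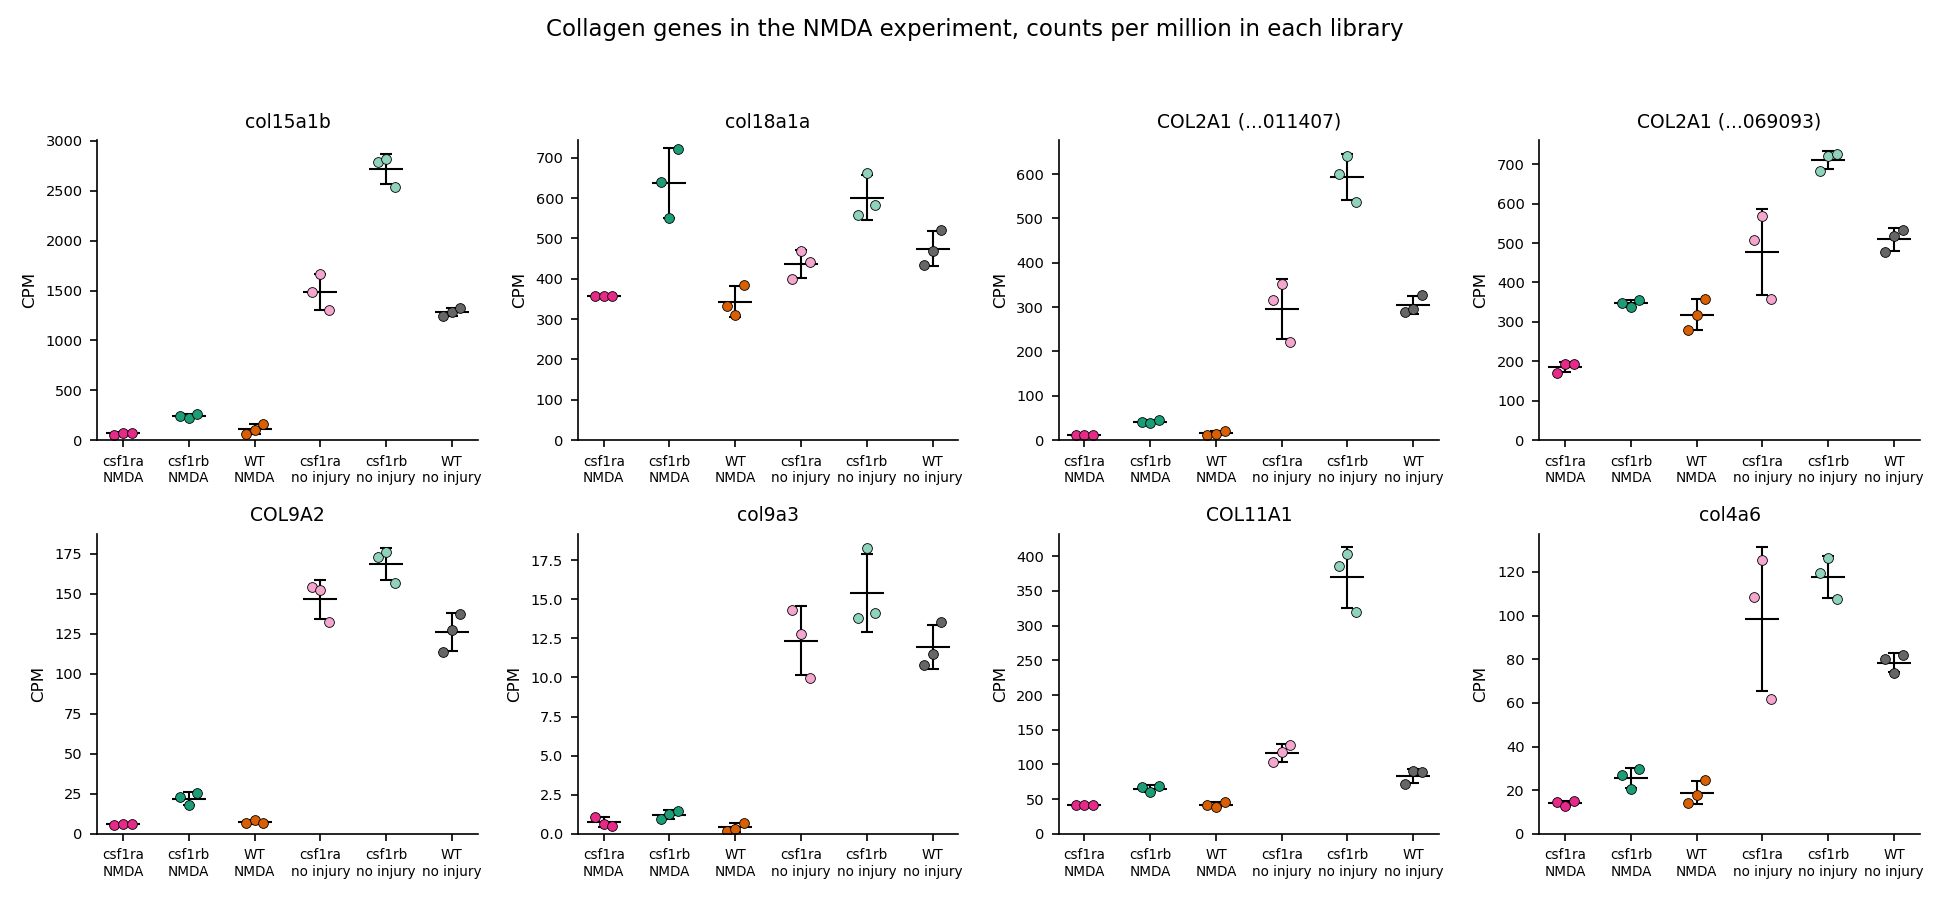
CPM of 8 collagen genes in every library of the NMDA experiment, with the 3 NMDA groups left of the 3 uninjured groups; points are libraries, bars means and error bars SD (n = 3), and each panel has its own axis from 0. The genes col15a1b, COL2A1 (ENSDARG00000011407), COL9A2, col9a3 and col4a6 are far lower after NMDA than uninjured in all 3 genotypes, and COL11A1 and col15a1b are highest in uninjured csf1rb mutants.

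Among the other kinds, the fibril-coating gene col16a1 had 3.22, 2.21 and 2.201 CPM in WT retinas after NMDA, against 23.6, 24.4 and 27.9 CPM uninjured (log2 fold change -3.31 ± 0.3, adjusted p = 2.95e-08). COL14A1 had 14.9, 17.4 and 17.1 CPM, against 73.4, 64.2 and 78.5 CPM (log2 fold change -2.13 ± 0.26, adjusted p = 1.07e-06). col14a1b had 5.93, 5.902 and 4.51 CPM, against 18.1, 18.2 and 17.9 CPM (log2 fold change -1.73 ± 0.16, adjusted p = 4.07e-08). The anchoring fibril gene col7a1 had 0.201, 0.267 and 0.4103 CPM, against 2.69, 1.503 and 2.38 CPM (log2 fold change -2.89 ± 0.41, adjusted p = 6.71e-06). COL6A3 had 0.134, 0.495 and 0.448 CPM, against 2.19, 1.503 and 3.25 CPM (log2 fold change -2.7 ± 0.49, adjusted p = 1e-04). None of these 5 genes had an injured library within the uninjured range. The fibrillar gene col24a1 fell as well, to 2.61, 1.904 and 2.43 CPM in WT retinas after NMDA, against 5.66, 6.27 and 6.34 CPM (log2 fold change -1.39 ± 0.23, adjusted p = 3.2e-05). At lower levels col21a1, col6a4b, COL8A1, col5a2b, both col19a1 genes, col28a1a, COL12A1 (ENSDARG00000019601) and col23a1b fell in WT retinas, with log2 fold changes between -2.67 for col6a4b and -0.83 for col23a1b. The call for col23a1b was lost under most of the alternatives, and without replicate 3 of the WT NMDA group it stood at -0.56.

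The 6 collagen genes that rose with NMDA in WT retinas were low ones. COL5A2, a chain inside type I fibrils, had 8.78, 11.01 and 11.5 CPM after NMDA, against 5.497, 5.79 and 6.87 CPM uninjured, without overlap (log2 fold change 0.78 ± 0.2, adjusted p = 0.00232). COL12A1 (ENSDARG00000078322) had 4.22, 2.02 and 4.103 CPM, against 0.579, 0.953 and 1.397 CPM (log2 fold change 1.81 ± 0.44, adjusted p = 0.00147). The genes col5a3b, at 0.888 ± 0.176 CPM against 0.195 ± 0.0509 CPM, COL11A2, at 0.605 ± 0.273 CPM against 0.218 ± 0.0417 CPM, and col1a1a, at 0.794 ± 0.5402 CPM against 0.239 ± 0.146 CPM (SD, n = 3 each), had at most 1.42 CPM in any WT library. The col1a1a call was lost without replicate 3 of the WT NMDA group, at 0.98. A type XXVIII gene, col28a2b, had 18 counts over the 3 NMDA libraries, against 0 uninjured, and was at least 5.64-fold higher when set against a floor of 3 counts over the uninjured group. The type I genes COL1A1, at 2.38, 1.64 and 3.32 CPM against 1.45, 1.54 and 2.45 CPM (log2 fold change 0.43 ± 0.42, adjusted p = 0.377), and COL1A2, at 0.5697, 0.457 and 1.902 CPM against 0.868, 0.623 and 1.43 CPM (log2 fold change -0.01 ± 0.59, adjusted p = 0.996), did not pass the test in WT retinas. Of the 8 tested genes of the fibroblast list 3 rose and 2 fell, against 35.6% and 34.3% of all genes. The list summed to 150.1 to 204.4 CPM in WT retinas after NMDA, against 26.2 to 29.3 CPM uninjured. DCN alone made up 131.9 to 170.8 CPM of it after NMDA, against 2.68 to 2.85 CPM; the other 12 genes summed to 18.1 to 33.6 CPM, against 23.6 to 26.5 CPM, which overlap.

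NMDA lowered most collagen genes in both mutants too. In csf1ra mutants 28 of 46 fell (60.9%) and 6 rose (13.04%), against 37.1% and 36.4% of all genes, with medians of -1.86 and -0.01; in either direction 73.9% of collagen genes were called, against 73.5% of all genes. In csf1rb mutants 27 fell (58.7%) and 7 rose (15.2%), against 33.5% and 37.0% of all genes, with medians of -1.51 and 0.06; in either direction it was 73.9%, against 70.5%. The 3 genotypes share no libraries, and 22 collagen genes fell with NMDA in all 3, 4 rose in all 3 and 0 were called in opposite directions; 39 were called in at least 1 genotype. The 4 that rose in all were COL12A1 (ENSDARG00000078322), col1a1a, col28a2b and col5a3b. The overlap over all genes was not counted, so these counts are not read as particular to collagen genes. Of all genes 69.9% were called with NMDA in WT, 73.5% in csf1ra and 70.5% in csf1rb retinas. For col28a2b, csf1rb mutants had 49 counts after NMDA, against 0 uninjured, or at least 14.6-fold more, and csf1ra mutants had 35 counts, against 1, a ratio of 32.9 with an exact 95% interval of 5.53 to 1340 for counting error only.

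In csf1ra mutants COL2A1 (ENSDARG00000011407) had 11.9, 11.1 and 12.3 CPM after NMDA, against 316, 351 and 221 CPM uninjured (log2 fold change -4.65 ± 0.22, adjusted p = 9.01e-12). In csf1rb mutants the same gene had 40.2, 38.4 and 45.04 CPM, against 601, 640 and 537 CPM (log2 fold change -3.85 ± 0.21, adjusted p = 7.53e-11). The gene col15a1b had 52.8, 70.7 and 75.2 CPM in csf1ra mutants after NMDA, against 1483, 1668 and 1307 CPM uninjured (log2 fold change -4.49 ± 0.27, adjusted p = 1.48e-10), and 239, 220 and 260 CPM in csf1rb mutants, against 2792, 2817 and 2543 CPM (log2 fold change -3.5 ± 0.26, adjusted p = 2.45e-09). All injured libraries of both genes lay far below the uninjured ones of their genotype. Other large falls were those of COL9A2 (-4.62), col9a3 (-4.06) and col7a1 (-3.57) in csf1ra mutants, and of col9a3 (-3.64) and col9a1b (-3.94) in csf1rb mutants, on the log2 scale. The col9a1b value rests on 1 library, since uninjured csf1rb replicate 2 had 8.99 CPM, and it was -2.08 without it. The fibril-coating gene col21a1 had 1 count over the 3 csf1rb NMDA libraries, against 117 uninjured, a ratio of 0.00764 with an exact 95% interval of 0.000192 to 0.0434 for counting error only. For col18a1b the counts were 1 against 25 in csf1ra mutants, a ratio of 0.0376 (0.000915 to 0.23), and 2 against 54 in csf1rb mutants, a ratio of 0.0331 (0.00391 to 0.125).

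The injuries can be set side by side, without a test between experiments. Of the 12 genes that rose after the poke with DMSO, 3 rose with NMDA in WT retinas (COL12A1 (ENSDARG00000078322), col1a1a and col5a3b), 2 fell with NMDA (COL6A3 and COL12A1 (ENSDARG00000019601)), 6 were not called (COL1A1, COL1A2, COL4A1, COL4A2, col5a3a and col6a4a) and col17a1b was not tested. All 9 that fell after the poke fell with NMDA in WT retinas: both COL2A1 genes, COL11A1, COL9A2, COL14A1, col14a1b, col15a1b, col4a5 and col4a6. A further 13 genes fell with NMDA and were not called after the poke. Of all genes 18.2% rose and 13.4% fell after the poke, and 35.6% rose and 34.3% fell with NMDA in WT retinas. Their overlap was not counted. COL6A3, called in opposite directions, stood at 2.23 after the poke and -2.7 with NMDA on the log2 scale.

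**Figure D4:**
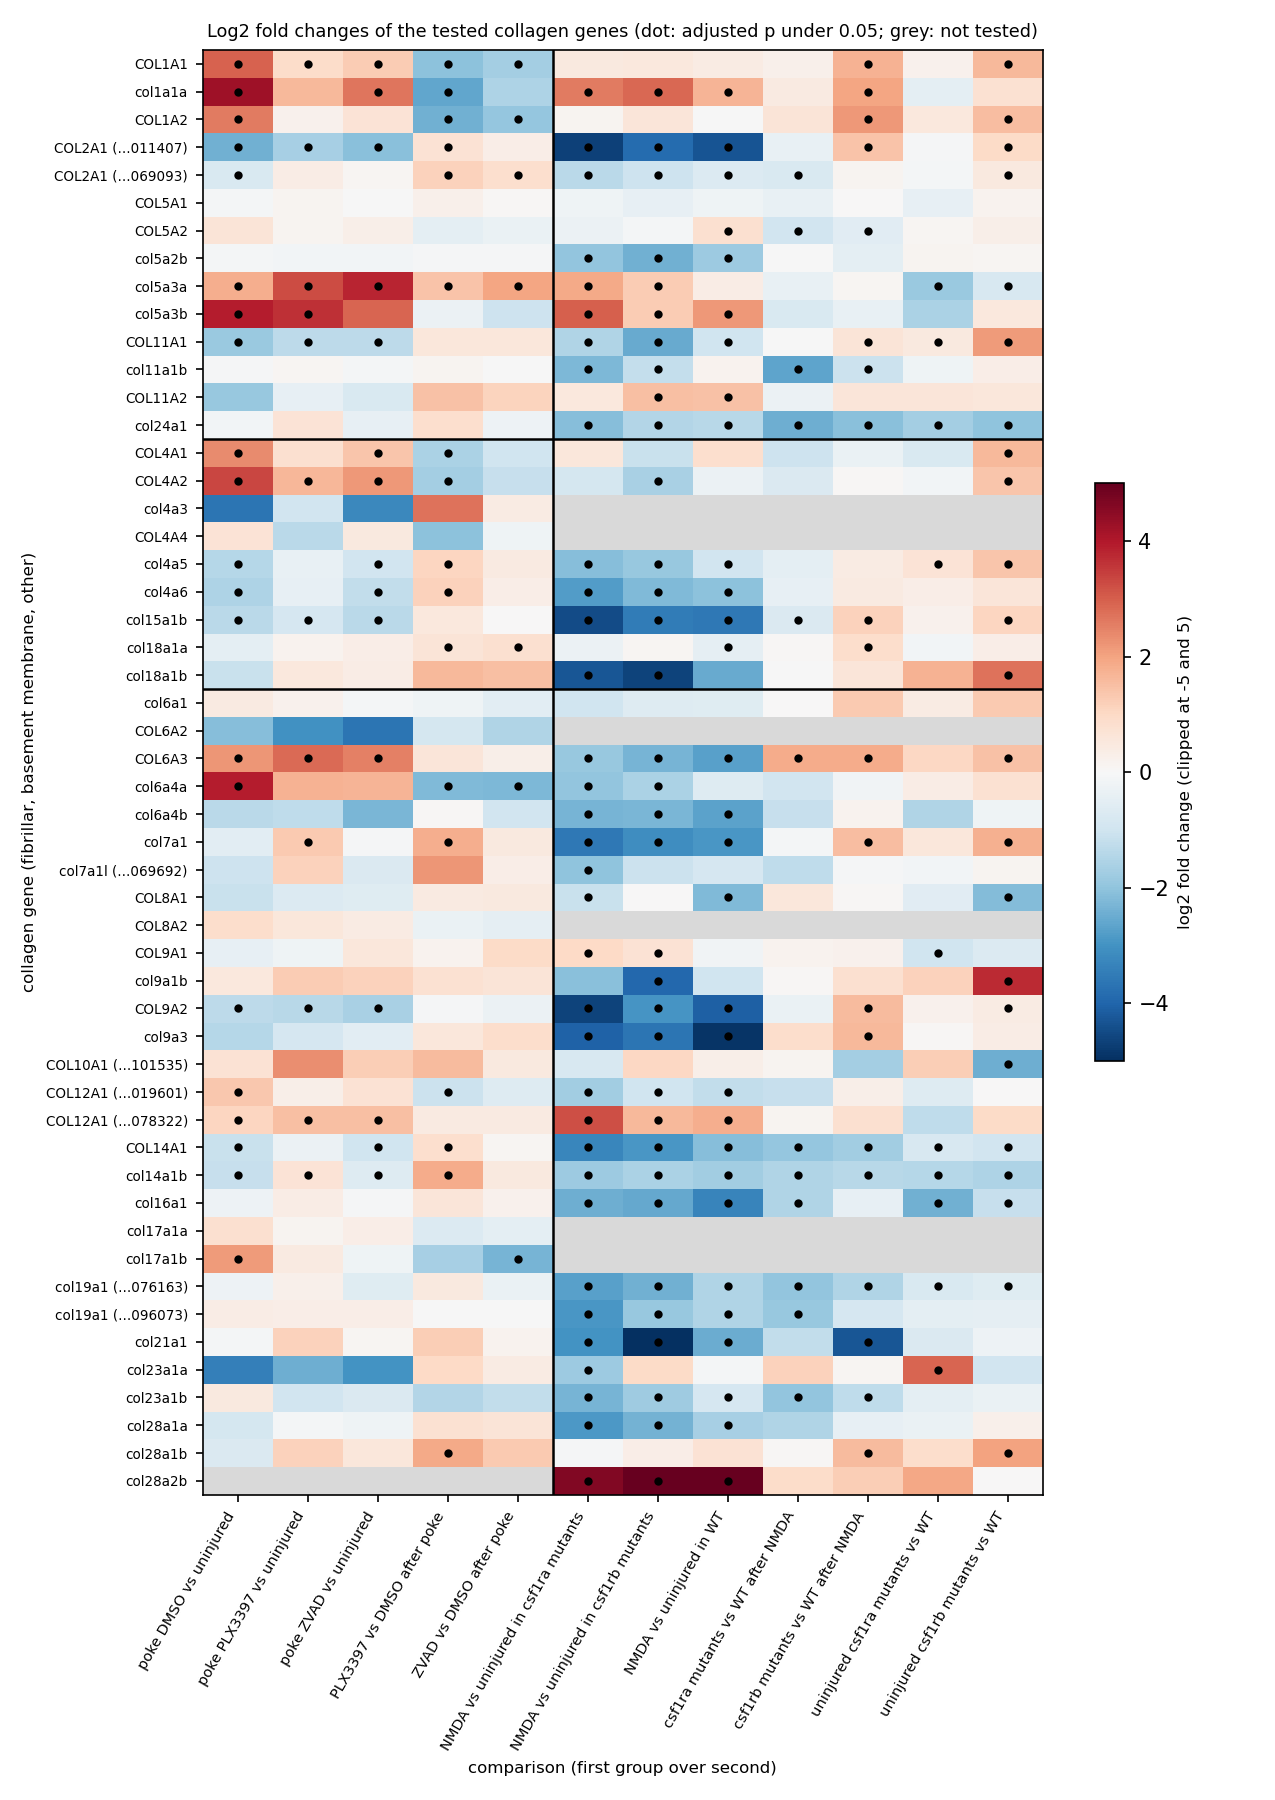
Log2 fold changes of the 52 collagen genes tested in at least 1 experiment in 12 comparisons, grouped as fibrillar, basement membrane and other; each cell is a gene and comparison, the colour is clipped at 5 in both directions, a dot marks adjusted p under 0.05 and grey means not tested. Falls with NMDA run through all 3 genotypes, and the rises of COL1A1, COL1A2, COL4A1 and COL4A2 after the poke with DMSO stand against falls of col4a5, col4a6 and col15a1b.

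Without injury the csf1rb mutants held more collagen mRNA than WT retinas. Of 46 genes 15 were higher (32.6%) and 8 lower (17.4%), against 14.5% and 12.4% of all genes, with medians of 0.35 and 0.05. Of the 7 tested basement membrane genes 5 were higher and none lower, of 14 fibrillar genes 5 were higher and 2 lower, and of 25 others 5 were higher and 6 lower. COL11A1 had 386, 403 and 320 CPM in uninjured csf1rb mutants, against 71.96, 90.3 and 89.01 CPM in uninjured WT retinas. Every mutant library lay far above every WT library (log2 fold change 2.14 ± 0.13, adjusted p = 1.23e-08). COL2A1 (ENSDARG00000011407) had 601, 640 and 537 CPM, against 289, 297 and 327 CPM (log2 fold change 0.96 ± 0.19, adjusted p = 0.00118), col15a1b had 2792, 2817 and 2543 CPM, against 1240, 1289 and 1326 CPM (log2 fold change 1.08 ± 0.24, adjusted p = 0.00275). col4a5 had 146, 158 and 126 CPM, against 52.9, 51.4 and 59.7 CPM (log2 fold change 1.39 ± 0.19, adjusted p = 4.02e-05). No library of the csf1rb mutants overlapped WT in these genes. The type I gene COL1A1 had 5.29, 5.74 and 5.62 CPM, against 1.45, 1.54 and 2.45 CPM (log2 fold change 1.61 ± 0.41, adjusted p = 0.00767). col7a1 had 4.84, 10.1 and 7.34 CPM, against 2.69, 1.503 and 2.38 CPM (log2 fold change 1.77 ± 0.31, adjusted p = 0.000516). COL1A2, COL4A1 and COL4A2 were called higher too (1.54, 1.63 and 1.37), but each lost its call when single libraries were left out. The value for col9a1b, 3.73, fell to 1.87 and lost its call without uninjured csf1rb replicate 2. Rod markers summed to 1554 to 3269 CPM in uninjured csf1rb mutants, against 14260 to 16160 CPM in uninjured WT retinas, and Müller glia markers to 13560 to 15680 CPM, against 8436 to 9513 CPM; the part of these cells in the result was not tested.

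Some genes were lower in both mutants without injury. The mutants share their WT control libraries, so the values are given side by side. The gene col14a1b had 5.86, 8.17 and 6.09 CPM in csf1ra mutants and 6.18, 6.14 and 6.16 CPM in csf1rb mutants, against 18.1, 18.2 and 17.9 CPM in WT retinas. Both mutants lay well below WT, and the libraries within each group were close (csf1ra log2 fold change -1.43 ± 0.16, adjusted p = 1.61e-05; csf1rb -1.55 ± 0.16, adjusted p = 3.11e-06). For col24a1 the values were 1.98, 2.104 and 1.55 CPM in csf1ra mutants and 1.95, 1.55 and 1.03 CPM in csf1rb mutants, against 5.66, 6.27 and 6.34 CPM in WT retinas (csf1ra log2 fold change -1.7 ± 0.23, adjusted p = 0.000117; csf1rb -2.02 ± 0.24, adjusted p = 1.11e-05). For col16a1 they were 6.42, 5.96 and 2.103 CPM and 12.2, 12.3 and 9.54 CPM, against 23.6, 24.4 and 27.9 CPM (csf1ra log2 fold change -2.39 ± 0.28, adjusted p = 3.19e-05; csf1rb -1.16 ± 0.27, adjusted p = 0.00387). No mutant library of col24a1 or col16a1 reached the WT range. COL14A1 was -0.81 in csf1ra mutants and -0.97 in csf1rb mutants, col19a1 (ENSDARG00000076163) was -0.77 and -0.59, and col5a3a was -1.87 and -0.81 on the log2 scale, all called; COL14A1 and col19a1 (ENSDARG00000076163) lost their call in csf1ra mutants when single libraries were left out. Microglial markers without apoeb summed to 3.52 to 5.01 CPM in csf1ra mutants and 8.10 to 8.73 CPM in csf1rb mutants, against 26.3 to 27.5 CPM in WT retinas, with 10 of 11 tested genes lower in each mutant. Of all genes 6.74% were lower in csf1ra mutants and 12.4% in csf1rb mutants. The microglial list includes csf1ra itself. With apoeb the sums went the other way, at 7295 to 9513 CPM and 6718 to 8241 CPM, against 5660 to 6553 CPM in WT retinas. In csf1ra mutants rod markers summed to 5926 to 9250 CPM, against 14260 to 16160 CPM in WT retinas, and Müller glia markers to 12860 to 14100 CPM, against 8436 to 9513 CPM; their part in the result was not tested.

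In csf1ra mutants as a whole 3 collagen genes were higher (6.52%) and 7 lower (15.2%) without injury, against 7.94% and 6.74% of all genes, with medians of -0.11 and 0.04. The higher ones were COL11A1 (log2 fold change 0.47 ± 0.12, adjusted p = 0.0159), col4a5 (0.67 ± 0.18, adjusted p = 0.0209) and the transmembrane collagen gene col23a1a, which had 0.687, 0.807 and 1.14 CPM, against 0, 0.0733 and 0.264 CPM in WT retinas (2.89 ± 0.6, adjusted p = 0.00392). The first 2 lost their calls when single libraries were left out, and col23a1a stood at 4.36 without uninjured WT replicate 3. The remaining lower gene was COL9A1 (log2 fold change -0.997 ± 0.31, adjusted p = 0.0363). In csf1rb mutants the lower genes further included COL8A1, at 0.244, 0.37 and 0.487 CPM against 1.74, 1.503 and 1.89 CPM (log2 fold change -2.18 ± 0.38, adjusted p = 0.000439), and COL10A1 (ENSDARG00000101535), with 3 counts against 16, a ratio of 0.169 (0.0316 to 0.59).

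After NMDA, csf1ra mutants had 1 collagen gene higher (2.17%) and 11 lower (23.9%) than WT retinas, against 9.24% and 13.2% of all genes, with medians of -0.39 and -0.01. The csf1rb mutants had 12 higher (26.1%) and 8 lower (17.4%), against 11.9% and 11.4% of all genes, with medians of 0.15 and 0.00. Rod markers summed to 1232 to 1996 CPM in csf1ra mutants and 603 to 1522 CPM in csf1rb mutants, against 3373 to 5872 CPM in WT retinas, with 9 and 10 of 11 genes lower. Müller glia markers summed to 4803 to 5851 CPM and 7843 to 8358 CPM, against 4220 to 5933 CPM, with 1 of 11 lower in csf1ra mutants and 7 higher and 1 lower in csf1rb mutants. Microglial markers without apoeb summed to 10.6 to 16.3 CPM and 10.2 to 11.1 CPM, against 38.9 to 48.4 CPM. With apoeb they summed to 4401 to 4982 CPM, within the WT range, and to 7883 to 10430 CPM, above it, against 3673 to 6544 CPM. Pigment epithelium markers summed to 54.0 to 92.4 CPM and 37.7 to 83.7 CPM, against 24.3 to 30.4 CPM, with 6 and 5 of 10 genes higher. The part of these cells in the results was not tested. The fibril gene col11a1b had 1.03, 0.811 and 2.004 CPM in csf1ra mutants and 3.68, 3.61 and 4.27 CPM in csf1rb mutants, against 7.54, 7.08 and 9.44 CPM in WT retinas. The 3 groups did not overlap (csf1ra log2 fold change -2.64 ± 0.24, adjusted p = 1.78e-06; csf1rb -1.06 ± 0.22, adjusted p = 0.00195). For col24a1 the NMDA libraries had 0.283, 0.423 and 0.553 CPM in csf1ra mutants and 0.525, 0.574 and 0.5299 CPM in csf1rb mutants, against 2.61, 1.904 and 2.43 CPM in WT retinas (csf1ra log2 fold change -2.45 ± 0.28, adjusted p = 1.54e-05; csf1rb -2.08 ± 0.26, adjusted p = 3.16e-05). COL14A1 had 2.09, 4.48 and 6.18 CPM and 4.65, 4.56 and 5.51 CPM, against 14.9, 17.4 and 17.1 CPM (csf1ra log2 fold change -1.95 ± 0.27, adjusted p = 0.000106; csf1rb -1.75 ± 0.27, adjusted p = 0.000176). col19a1 (ENSDARG00000076163) had 0.885, 0.847 and 0.898 CPM and 1.46, 1.39 and 0.848 CPM, against 4.16, 3.66 and 2.65 CPM (csf1ra log2 fold change -1.99 ± 0.25, adjusted p = 3.81e-05; csf1rb -1.49 ± 0.24, adjusted p = 0.000234). In each of them every mutant library was below every WT library. The 1 gene higher in csf1ra mutants was COL6A3, at 0.992, 1.83 and 1.04 CPM, and in csf1rb mutants it had 1.61, 1.43 and 0.777 CPM, against 0.134, 0.495 and 0.448 CPM in WT retinas (csf1ra log2 fold change 1.85 ± 0.51, adjusted p = 0.0146; csf1rb 1.85 ± 0.51, adjusted p = 0.0134). Both COL6A3 calls were lost without WT NMDA replicate 1, at 1.44 and 1.43. The lower call of col15a1b in csf1ra mutants, -0.7 with overlapping libraries, was -0.30 and lost without WT NMDA replicate 3.

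Type I collagen was higher after NMDA in csf1rb mutants than in WT retinas. COL1A1 had 8.52, 10.3 and 5.299 CPM in csf1rb mutants, against 2.38, 1.64 and 3.32 CPM in WT retinas (log2 fold change 1.72 ± 0.4, adjusted p = 0.00441), COL1A2 had 5.03, 5.76 and 2.19 CPM, against 0.5697, 0.457 and 1.902 CPM (log2 fold change 2.16 ± 0.54, adjusted p = 0.00776). col1a1a had 3.001, 4.25 and 1.94 CPM, against 0.469, 0.495 and 1.42 CPM (log2 fold change 1.96 ± 0.56, adjusted p = 0.0164). No csf1rb library of the 3 genes fell into the WT range. The col1a1a call was lost without csf1rb NMDA replicate 2, at 1.64. COL1A1 was higher without injury too, at 5.29, 5.74 and 5.62 CPM in csf1rb mutants, against 1.45, 1.54 and 2.45 CPM in WT retinas. COL1A2 and col15a1b were also called higher in uninjured csf1rb mutants. No type I gene, nor col15a1b, was called in the csf1rb interaction test. The fibroblast list summed to 89.9 to 111.9 CPM in csf1rb mutants after NMDA, against 150.1 to 204.4 CPM in WT retinas, and without DCN to 19.1 to 22.4 CPM, against 18.1 to 33.6 CPM, which overlap; its part in the result was not tested. The basement membrane genes higher in csf1rb mutants were col18a1a, at 639, 550 and 722 CPM against 333, 310 and 386 CPM (log2 fold change 0.89 ± 0.13, adjusted p = 9.85e-05), and col15a1b, at 239, 220 and 260 CPM against 60.6, 102 and 161 CPM (log2 fold change 1.15 ± 0.24, adjusted p = 0.00208). Both separated the genotypes fully. COL9A2 (1.56), col9a3 (1.62), COL2A1 (ENSDARG00000011407) (1.42), COL11A1 (0.63), col7a1 (1.55) and col28a1b (1.59) were higher as well.

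**Figure D5:**
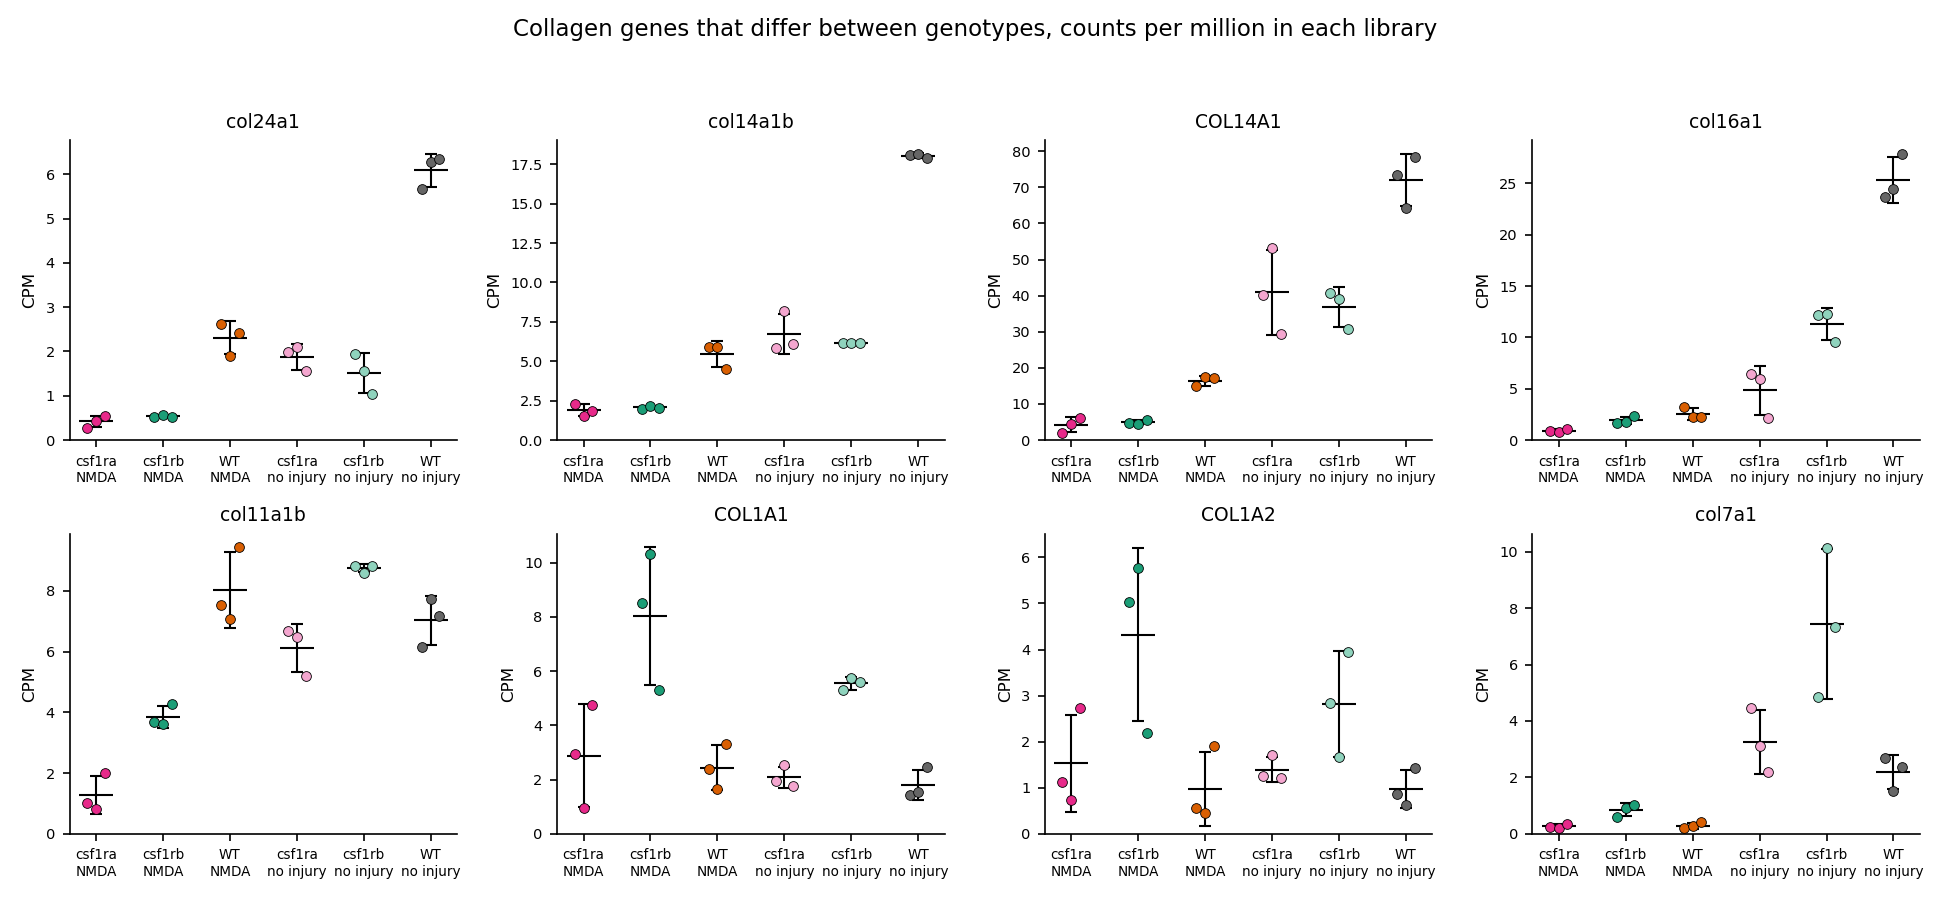
CPM of 8 collagen genes in every library of the NMDA experiment, ordered as csf1ra mutants, csf1rb mutants and WT after NMDA and then uninjured; points are libraries, bars means and error bars SD (n = 3), and each panel has its own axis from 0. The genes col24a1, col14a1b, COL14A1 and col16a1 have their highest mean in WT retinas within each arm, and COL1A1, COL1A2 and col7a1 in csf1rb mutants.

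Whether the response to NMDA itself differed by genotype was tested with an interaction term. In csf1ra mutants the log2 change with NMDA was more positive than in WT retinas for 1 collagen gene and more negative for 4, or 10.9% of 46 against 5.83% of all genes (2.56% more positive and 3.27% more negative). In csf1rb mutants it was more positive for 3 and more negative for 4, or 15.2% against 8.18% of all genes (4.10% and 4.07%). With NMDA, col11a1b changed by -2.25 in csf1ra mutants and by -1.18 in csf1rb mutants, against 0.19 in WT retinas, on the log2 scale, and the differences were -2.44 ± 0.32, adjusted p = 0.000426 for csf1ra and -1.37 ± 0.3, adjusted p = 0.0106 for csf1rb. COL11A1 fell more in csf1rb mutants, by 2.50 against 0.99 on the log2 scale (difference -1.51 ± 0.18, adjusted p = 8.76e-05), and from a higher uninjured level. COL9A2 changed less in csf1rb mutants, by -2.94 against -4.08 (difference 1.14 ± 0.2, adjusted p = 0.00214). The interaction tests share the WT libraries.

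Genes that build, join and bind collagens gave a wider frame, from lists chosen for their role. Of 26 tested genes for collagen synthesis 5 were higher and 6 lower after the poke with DMSO, and 10 higher and 8 lower with NMDA in WT retinas. That is 42.3% called after the poke, against 31.6% of all genes, and 69.2% with NMDA, against 69.9%. PLOD2, which hydroxylates collagen lysines, averaged 141.5 CPM in WT retinas after NMDA, against 34.5 CPM uninjured (log2 fold change 2.04 ± 0.15, adjusted p = 1.53e-09), and P4HB, a subunit of the prolyl hydroxylase, 229.9 CPM, against 70.4 CPM (1.71 ± 0.15, adjusted p = 2.6e-08). Both genes were picked for the size of their change, and the list as a whole moved both ways, with 10 higher and 8 lower. SERPINH1 (ENSDARG00000019949), the collagen chaperone, was lower with PLX3397 than with DMSO, at 1.22 CPM against 9.45 CPM (-2.95 ± 0.76, adjusted p = 0.00901).

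Of 18 tested genes for collagen maturation 6 were higher and 6 lower after the poke with DMSO, and 8 higher and 7 lower with NMDA in WT retinas, or 66.7% and 83.3% called, against 31.6% and 69.9% of all genes. The crosslinking enzyme gene loxl2a averaged 4.02 CPM after the poke with DMSO, against 0.235 CPM uninjured (log2 fold change 4.07 ± 0.60, adjusted p = 0.000175), and 0.569 CPM with PLX3397, against 4.02 CPM with DMSO (-2.81 ± 0.55, adjusted p = 0.00164). LOXL2, its relative, averaged 343.9 CPM in uninjured csf1rb mutants, against 40.4 CPM in uninjured WT retinas (3.09 ± 0.35, adjusted p = 8.16e-06), and 5.62 CPM in WT retinas after NMDA, against 40.4 CPM uninjured (-2.85 ± 0.36, adjusted p = 1.85e-06). Uninjured csf1rb mutants thus had both more LOXL2 and more collagen counts than uninjured WT retinas.

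Among collagen receptors 6 of 14 tested genes were higher and 1 lower after the poke with DMSO, and 7 of 12 were higher and 3 lower with NMDA in WT retinas. Of all genes 18.2% were higher and 13.4% lower after the poke, and 35.6% were higher and 34.3% lower with NMDA. ITGA2, an integrin subunit that binds collagen, averaged 4.65 CPM after the poke with DMSO, against 0.0181 CPM uninjured (adjusted p = 6.07e-07), and 16.3 CPM in WT retinas after NMDA, against 0.0389 CPM (adjusted p = 1.52e-09). MRC2, a receptor that takes up collagen, averaged 1.2 CPM in csf1ra mutants and 0.992 CPM in csf1rb mutants after NMDA, against 4.06 CPM in WT retinas (log2 fold changes -1.75 ± 0.34 and -2.02 ± 0.34, adjusted p = 0.00152 and 0.000436).

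Of 22 tested partners of basement membranes 5 were higher and 7 lower after the poke with DMSO, and 6 of 21 higher and 9 lower with NMDA in WT retinas; against DMSO, 9 were higher and 2 lower with PLX3397 and 8 higher and 0 lower with ZVAD. The list was called at 54.5% after the poke and 71.4% with NMDA, against 31.6% and 69.9% of all genes, and at 50% with PLX3397 and 36.4% with ZVAD, against 34.2% and 18.7%. LAMA1, a laminin chain, averaged 127.3 CPM with PLX3397 and 122.8 CPM with ZVAD, against 32.9 CPM with DMSO (log2 fold changes 1.95 ± 0.25 and 1.90 ± 0.25, adjusted p = 9.55e-05 and 0.000265). Among fibril partners 3 of 28 were higher and 3 lower after the poke with DMSO, and 8 of 25 higher and 10 lower with NMDA in WT retinas, or 21.4% and 72% called, against 31.6% and 69.9% of all genes. Decorin (DCN), a proteoglycan that binds type I fibrils, averaged 71.4 CPM after the poke with DMSO, against 2.28 CPM uninjured (4.97 ± 0.17, adjusted p = 1.14e-09), and 148.6 CPM in WT retinas after NMDA, against 2.75 CPM (5.75 ± 0.24, adjusted p = 2.51e-12). MATN3 (ENSDARG00000069245), a matrilin of cartilage-type matrix, averaged 0.0609 CPM in WT retinas after NMDA, against 10.0 CPM uninjured (adjusted p = 5.27e-07).

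In the poke experiment 6 of the 57 genes had too few counts to be tested, with 5 to 62 counts each over 12 libraries, and in the NMDA experiment 11, with 7 to 88 counts each over 18 libraries. Tested in neither were COL10A1 (ENSDARG00000054753), col27a1b, col28a2a, col7a1l (ENSDARG00000093135) and col8a1a; col28a2b was tested only in the NMDA experiment, and COL4A4, COL6A2, COL8A2, col17a1a, col17a1b and col4a3 only in the poke experiment. Of the genes tested, 27 were called in none of the poke comparisons and 2, COL5A1 and col6a1, in none of the NMDA comparisons. The gene col7a1l (ENSDARG00000069692) was lower with NMDA in csf1ra mutants, at 0.106, 0.106 and 0.104 CPM against 0.606, 0.526 and 0.184 CPM uninjured (log2 fold change -2.01 ± 0.62, adjusted p = 0.00755), and was called in no other comparison. COL5A1, a chain of type V collagen, had 25.7, 26.8 and 46.4 CPM in WT retinas after NMDA, against 38.3, 36.6 and 40.2 CPM uninjured, with overlap (log2 fold change -0.22 ± 0.23, adjusted p = 0.402). Symbols in capitals carry no paralog letter in the annotation used, so paralogs that share a symbol are given by their Ensembl numbers. Reads from near-identical paralogs may be divided between them by the counting program, and the strand of counting is not given, so overlapping genes cannot be separated.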

How the data were processed

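Poly(A) RNA was sequenced from what the protocol describes as whole retinas, though the titles carry the letters MG. Per the submitters' processing notes, RSEM 1.3.3, STAR 2.7.8a, FastQC 0.11.8 and cutadapt 4.8 are named, with GRCz11, in no stated order. The expected counts the authors deposited per gene were whole numbers; strandedness of counting is not given in the sources used here. Columns were matched to samples by the library name in the labels, and 9 columns of the poke table matched no sample and were not used. The 4 reporter rows stayed outside the fits.

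Counts were scaled by TMM and filtered by filterByExpr, and each experiment was fitted once over all genes with edgeR 4.0.16 (R 4.3.3, limma 3.58.1) by a robust quasi-likelihood fit with a term per group. Benjamini-Hochberg adjustment ran over all genes of a comparison, 14 in all, and adjusted p under 0.05 was called. The fit was also run on simulated data, with the same spread for all genes of an experiment and changes only in better-counted genes. That run does not bear on calls at low counts. Intervals on low counts are exact at 95% and the floor is 3 counts; both cover counting error only. Alternatives were DESeq2 1.42.0, its size factors, no filter, a replicate block, only the groups compared, leaving out each library, and leaving out 4 poke libraries that scored lowest in their groups on a principal component of log2 CPM. Correlations between libraries gave no sign that replicate numbers pair the samples, but cannot exclude it.

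The members, marker lists and partner lists were chosen with earlier results of these data known. Genes named are the members called, and from each partner list some of the 3 called genes with the largest absolute log2 fold change per comparison; levels per coding length were not computed, for want of lengths. Library depth sets the precision of low genes, which had under 100 counts in some comparisons.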

Additional observations from a re-analysis of the deposited data

Results flagged for a closer look

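The response of 9 collagen genes to NMDA differed between mutants and WT retinas by the interaction test in edgeR, with both mutants set against the same WT libraries. The differences below are mutant minus WT, in log2 units, with adjusted p over all genes. In csf1ra mutants they were -2.44 for col11a1b (adjusted p = 0.000426), -1.06 for COL5A2 (adjusted p = 0.0377), -1.17 for col4a5 (adjusted p = 0.0144), -1.21 for col19a1 (ENSDARG00000076163) (adjusted p = 0.0351) and 1.52 for col5a3a (adjusted p = 0.00431). In csf1rb mutants they were 2.23 for COL8A1 (adjusted p = 0.0232), -1.37 for col11a1b (adjusted p = 0.0106), 1.14 for COL9A2 (adjusted p = 0.00214), -4.04 for col21a1 (adjusted p = 0.0117), -1.51 for COL11A1 (adjusted p = 8.76e-05), -0.97 for col4a5 (adjusted p = 0.0296) and 0.89 for col5a3a (adjusted p = 0.0418). The col21a1 value rests on 1 count in the csf1rb NMDA group and its size is not a bound. The calls of COL5A2 and col19a1 (ENSDARG00000076163) in csf1ra mutants, and of COL8A1, col4a5 and col5a3a in csf1rb mutants, were lost when single libraries were left out.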

How the results depend on the processing

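Of 247 calls of single collagen genes, 186 held under every alternative, 61 were lost under at least 1, and 0 reversed. Without the 4 poke libraries named above, 22 genes were called for poked PLX3397 against uninjured retinas in place of 12, and 17 for ZVAD against DMSO in place of 7; with only the groups compared in the fit, ZVAD against DMSO gave 11. Uninjured csf1ra mutants against WT gave 6 with a replicate block and 6 with only the groups compared, in place of 10. DESeq2 gave 11 for the csf1rb interaction in place of 7. Calls over all genes moved as well. For ZVAD against DMSO they were 6154 without the 4 libraries and 5427 with only the groups compared, in place of 3981. For uninjured csf1ra mutants against WT they were 1630 with the block and 1537 with only the groups compared, in place of 2975. For the csf1rb interaction DESeq2 gave 2469 in place of 1656. The causes were not tested.

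Leaving out each library in turn gave 18 to 21 called genes for DMSO, 9 to 12 for PLX3397 and 11 to 15 for ZVAD against uninjured retinas, 13 to 19 for PLX3397 and 4 to 7 for ZVAD against DMSO, 28 to 31 for NMDA in WT, 34 to 36 in csf1ra mutants and 32 to 34 in csf1rb mutants. For mutants against WT it gave 10 to 17 (csf1ra) and 16 to 20 (csf1rb) after NMDA and 5 to 10 (csf1ra) and 16 to 20 (csf1rb) uninjured, and for the interactions 3 to 8 (csf1ra) and 4 to 8 (csf1rb).

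Same-numbered libraries correlated at -0.132 to 0.162 (poke) and -0.15 to 0.142 (NMDA), and differently numbered ones at -0.228 to 0.216 and -0.235 to 0.198. These values give no sign of pairing by number but cannot exclude it. Over all genes a replicate block gave 6075 calls in place of 4536 for csf1ra mutants against WT after NMDA. It gave 6905 in place of 5445 for uninjured csf1rb mutants against WT, and fewer in every poke comparison. In the NMDA experiment number 5 occurs only in the uninjured csf1ra group, so the block in effect sets that library aside. The NMDA counts with the block are therefore not read as bearing on pairing. With the replicate block the counts were 22, 12 and 16 for DMSO, PLX3397 and ZVAD against uninjured retinas, 16 and 6 for PLX3397 and ZVAD against DMSO, 28, 31 and 35 for NMDA in WT, csf1ra and csf1rb retinas, 14 and 19 for csf1ra and csf1rb mutants after NMDA, 27 for uninjured csf1rb mutants, and 5 and 7 for the interactions.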
